A study of Mus musculus with 10 samples.

Results

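Interleukins are secreted proteins by which immune, stromal and epithelial cells signal to each other, and each acts through a receptor of 1 or more chains on the receiving cell. The 66 genes described here are all those on the array whose single annotated symbol is Il followed by a digit, out of 12394 genes with a single symbol. They hold ligands, signalling receptor chains, decoy receptors and antagonists, and also Il4i1, an amino acid oxidase that is no interleukin but whose symbol fits the rule. A gene with several probe sets was read from the brightest one, by the mean of the 10 arrays. Il1rl1, the receptor of IL-33, Il2rg, the common gamma chain, and Il11ra1, the receptor chain of IL-11, were not analysed here.

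The study hybridised RNA of sorted mammary cells of FVB/N mice to 10 Affymetrix arrays, 100 ng of total RNA each. COF are fibroblasts of control glands of mice whose genotype label reads WT (3 arrays). CAF are cancer-associated fibroblasts (3 arrays), CSC cells labelled as cancer stem cells (2 arrays) and TEC a further population (2 arrays, of which 1 label field reads TEFs), all sorted from mammary tumours of mice with the genotype label WAPCre-DNbcatn;HGF. This label names a Cre line driven by the promoter of the milk gene Wap, which is active in the secretory epithelium, a beta-catenin construct and HGF, the ligand of Met. CAF thus differ from COF both in the tumour and in the genotype of the mouse. The age of the mice, the gates of the sort and any pooling of mice are not given in the sources used here, nor whether arrays of a group come from separate mice. The p-values therefore measure the spread between these samples, which may be technical.

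Interleukins fall into families by the receptor chains they use. The IL-1 family (IL-1, IL-18, IL-33 and the IL-36 group) acts through receptors that recruit the adaptor Myd88, and is held in check by antagonists and decoy receptors. Most of the IL-6 family shares the chain gp130 (Il6st), and IL-4 and IL-13 use the chains Il4ra and Il13ra1. Most other families signal through Jak kinases and Stat factors as well. In tumours, fibroblasts are a known source of IL-6, IL-11 and IL-33, and myeloid cells of IL-1 and IL-10.

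The marker genes of the populations bear on how the levels below can be read. For pan-fibroblast genes the median log2 value was 12.96 to 13.41 on the 6 fibroblast arrays. It was 8.20 and 7.92 in CSC, but 8.54 on TEC replicate 1 and 11.20 on TEC replicate 2. On both TEC arrays the leukocyte median (12.91 and 12.51) and the granulocyte median (12.99 and 12.40) lay above the pan-epithelial median (9.24 and 9.61), so that the markers do not show TEC as mainly epithelial. CSC carried the highest epithelial medians, 11.91 and 11.60, together with macrophage medians of 11.06 and 10.90. Among the fibroblasts, 9 of 12 leukocyte genes were higher in CAF than in COF (array medians of 6.33 to 7.64 against 5.22 to 5.63), with Cd37 and Cd48 under the lower quartile of the array in both. Also higher in CAF were 10 of 17 pan-epithelial genes (1 was lower), 9 of 17 macrophage genes and 5 of 10 each of the granulocyte and the mast cell and basophil genes. Of 13 T, NK and innate lymphoid cell genes 3 were higher and 1 lower. Of 8 endothelial genes 2 were lower, and no B cell gene passed. Of all genes, 18.1% were higher in CAF. The array quartile is used below as a mark of low signal, since the table has no detection calls; it lay between 5.05 and 5.26. In bulk samples like these, a different share of cells and a different level per cell cannot be told apart.

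TEC had the highest group mean for 29 of the 66 genes, CAF for 18, COF for 13 and CSC for 6. Between CAF and COF, 19 members differed by limma with an adjusted p under 0.05, of which CAF had the higher level in 13 and the lower in 6. This is 28.8% of the members, against 34.8% of all genes called in that comparison (18.1% higher and 16.7% lower). Between CSC and TEC 35 members passed, 3 higher and 32 lower in CSC. Of all genes, 46.7% were called there, 26.6% higher and 20.1% lower in CSC. The median difference of the members was -0.54 on the log2 scale, against 2.4e-07 over all genes. CAF differed from CSC in 43 members (28 higher and 15 lower, against 66.5% of all genes called, 33.4% higher and 33.1% lower). From TEC it differed in 57 (27 higher and 30 lower, against 67.5% of all genes called, 38.6% higher and 28.9% lower). These comparisons share the CAF arrays, so their calls are not independent of each other. The arrays did not overlap for 45 members between CSC and TEC (68.7% of all genes), for 47 between CAF and CSC (82% of all genes) and for 60 between CAF and TEC (81.1% of all genes).

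**Figure D1:**
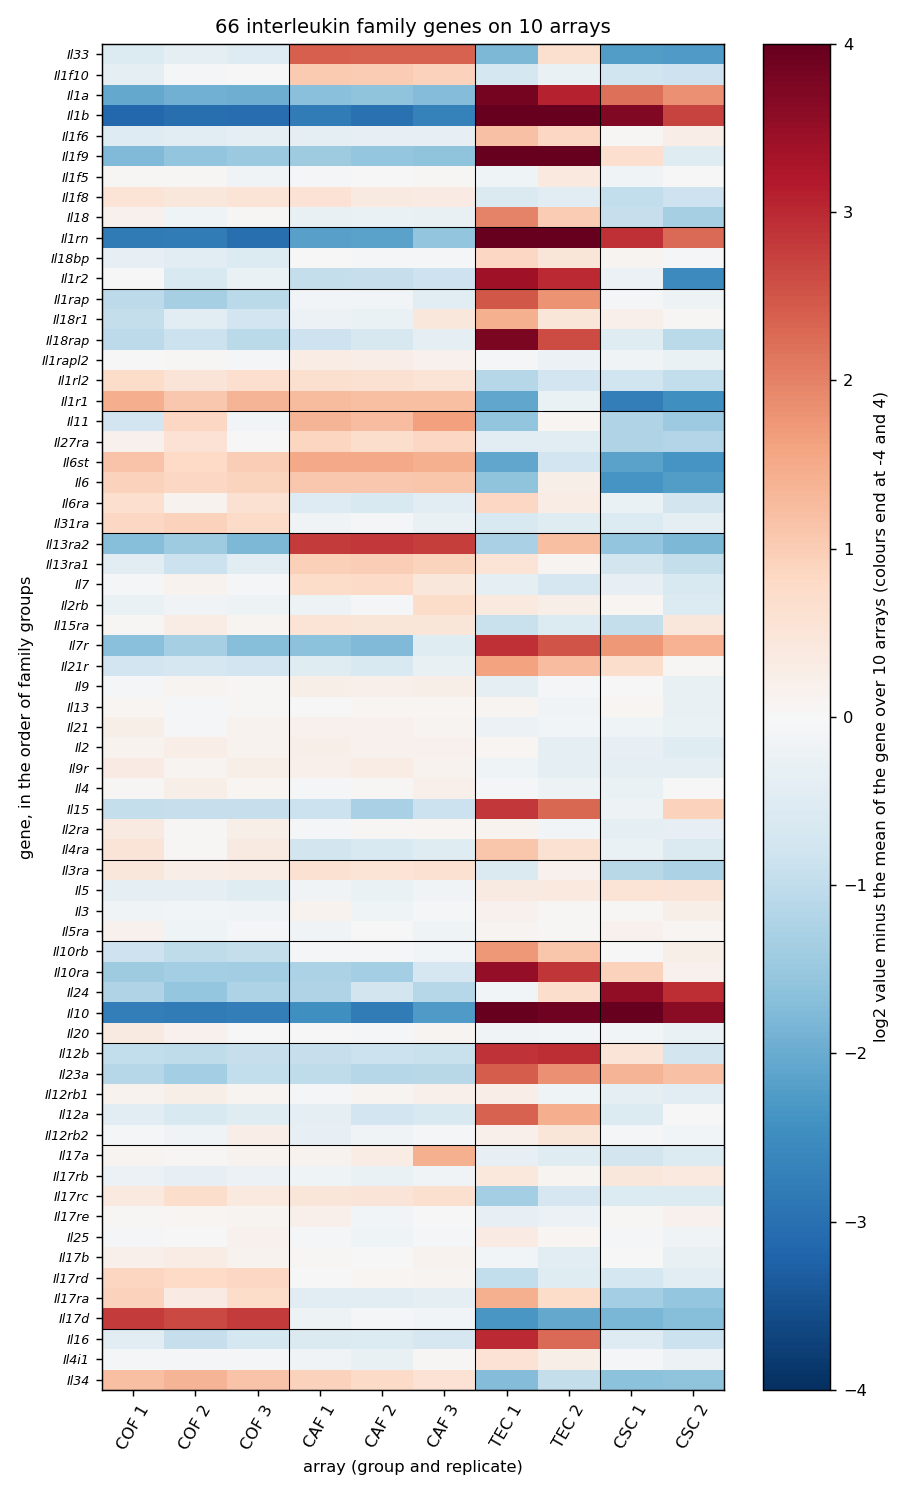
Rows are the 66 interleukin family genes in the order of their families, columns are the 10 arrays, and colour is the log2 value minus the mean of the gene over all arrays, ending at -4 and 4. Il1b, Il1rn and Il10 are high on the TEC and CSC arrays, Il33 and Il13ra2 on the 3 CAF arrays and TEC replicate 2, and Il17d on the 3 COF arrays.

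Setting CAF beside COF compares fibroblasts sorted from tumours with those of control glands of mice with another genotype. CAF carried more transcript of the IL-13 receptors Il13ra2 (21.7-fold) and Il13ra1 (2.88-fold) and of the ligands Il33 (7.22-fold), Il11 (2.68-fold) and Il1f10 (2.21-fold). Lower in CAF by at least 1 on the log2 scale were Il17d, Il17ra, Il31ra and Il6ra, so that 9 members differed by this much, against 8.31% of all genes. The other genes that passed differed by less than 1. Higher in CAF were Il1rap (0.94), Il1rn (0.91), Il10rb (0.87), Il7 (0.64), Il27ra (0.54), Il18bp (0.40), Il1rapl2 (0.25) and Il5 (0.23), and lower were Il4ra (-0.92) and Il17rd (-0.77). The arrays of CAF and COF did not overlap for 38 of the 66 members (57.6%), against 56.6% of all genes. The 19 that passed were among these. The 13 increases became 7 without COF replicate 3. CAF replicates 1 and 2 resembled each other most, with an SD of their differences over all genes of 0.14, followed by COF replicates 1 and 3 with 0.18. With each of these pairs averaged, 6 increases and 4 decreases were left, and Il11, Il1rn, Il27ra, Il18bp, Il7, Il4ra and Il6ra were among those that no longer passed (adjusted p of 0.0543 to 0.199).

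**Figure D2:**
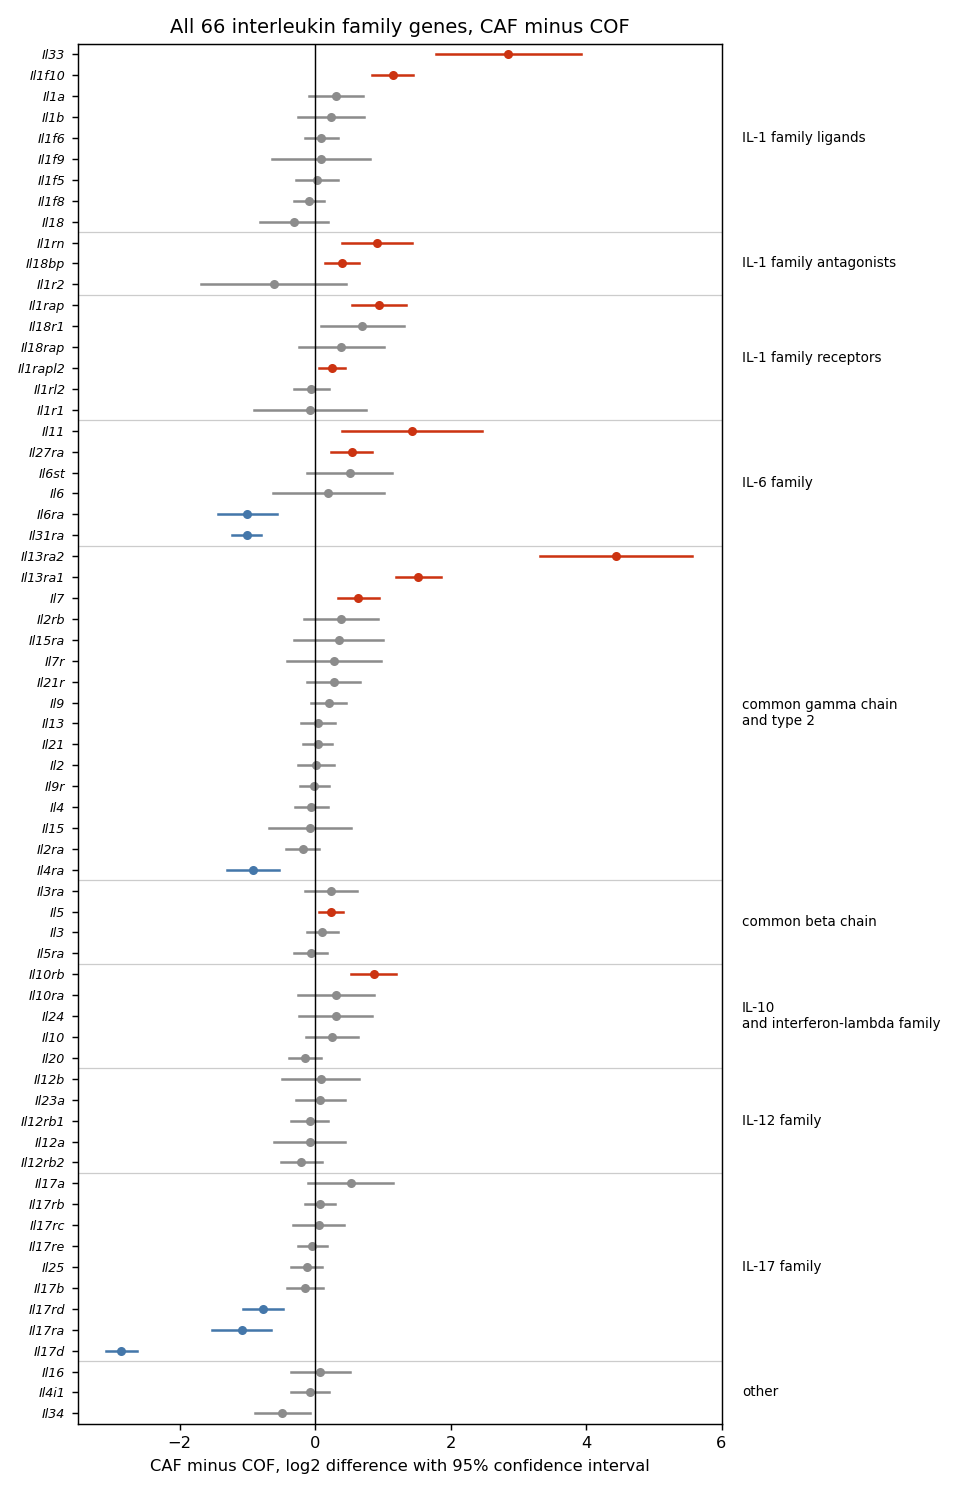
Points are CAF minus COF differences on the log2 scale for all 66 genes, by family, and lines are 95% confidence intervals of the limma fit. Red genes passed the test as higher in CAF (13), blue genes as lower (6), and grey genes did not pass (47); Il13ra2 lies farthest to the right at 4.44 and Il17d farthest to the left at -2.86.

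The receptors of IL-13 and IL-4 moved in different directions. Il13ra2 encodes a chain that binds IL-13 with high affinity and is known mainly as a decoy. It stood at 6.03, 6.29 and 5.92 on the COF arrays and at 10.52, 10.55 and 10.49 on the CAF arrays, a log2 difference of 4.44 ± 0.50 (SE, n = 3 and 3, limma adjusted p = 0.000238). The CAF arrays lay within 0.1 of each other and far from COF. It was 6.14 and 5.92 in CSC, at the level of COF, and 6.42 and 8.94 in TEC. TEC replicate 2 also had the higher pan-fibroblast median, and the part of fibroblasts in its Il13ra2 level was not tested. Il13ra1, the signalling chain of IL-13, was 8.95, 8.56 and 8.94 in COF and 10.35, 10.39 and 10.29 in CAF (1.53 ± 0.14, adjusted p = 0.00011). All 5 of its probe sets were higher in CAF, by 0.38 to 1.53. Il4ra, the chain shared by the IL-4 and IL-13 receptors, went the other way, from 10.23, 9.75 and 10.07 in COF to 8.96, 9.08 and 9.23 in CAF (-0.92 ± 0.17, adjusted p = 0.00304). The 3 probe sets of Il4ra gave -0.92, -1.68 and -0.14. On the probe set used, its level was highest in TEC (10.82 and 10.32). The ligands Il4 and Il13 stayed under the lower quartile on all 10 arrays. Il13ra2 exceeded CSC by 4.49 ± 0.55 and TEC by 2.84 ± 0.55, the latter by 1.58 without TEC replicate 1. Il13ra1 exceeded CSC by 1.76 ± 0.16 and TEC by 0.61 ± 0.16, and the difference from TEC did not pass without TEC replicate 2 (adjusted p = 0.0691) or with the mean of its probe sets (0.601).

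**Figure D3:**
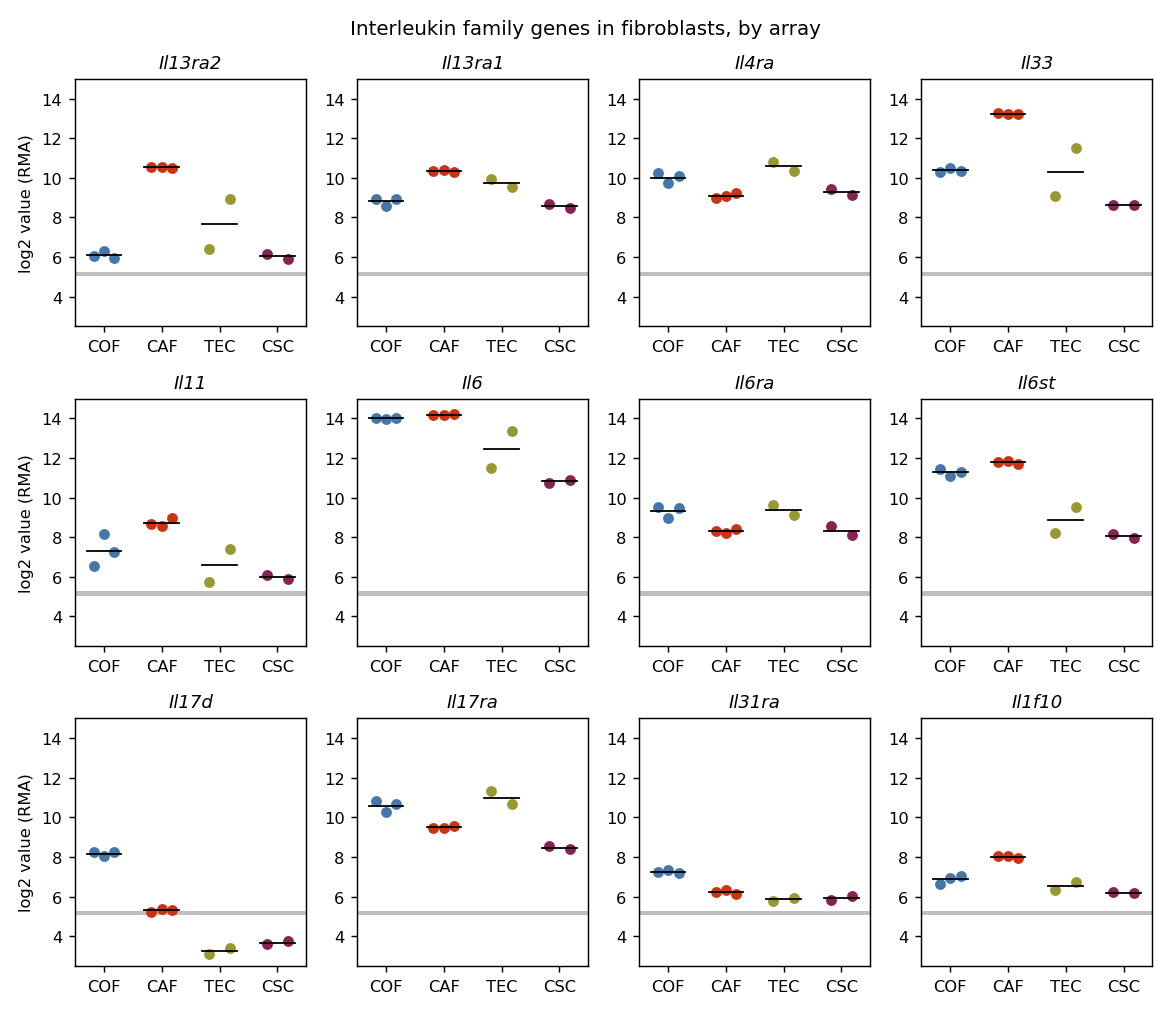
Each panel shows the log2 value of 1 gene on the 3 COF, 3 CAF, 2 TEC and 2 CSC arrays (points) with the group mean (black line), and the grey band spans the lower quartiles of the arrays (5.05 to 5.26). Il13ra2 and Il33 are higher on all CAF arrays than on all others, Il17d is higher on all COF arrays than on all others, and Il6 lies between 13.94 and 14.21 on the 6 fibroblast arrays.

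The promoters of Il13ra2, Il33 and Il11, which were higher in CAF than in COF by over 1 on the log2 scale, are shown with that of Il6, the ligand that was high in both fibroblast groups, so that the elements in front of them can be read. They are the 250 bases before the annotated start from RefSeq (GRCm38.p6), 5′ to 3′ on the strand of the gene. Il33 has 2 annotated starts in the table and both are given, and of the 2 starts of Il11 the one with a match is printed. Capitals mark matches on either strand to AP-1 (TGANTCA), C/EBP (TTGCNNAA), STAT (TTCNNNGAA), STAT6 (TTCNNNNGAA) and the NF-kB consensus, sites of factors that inflammatory signals are known to use.
Il13ra2, chrX:147429193-147429442, minus strand: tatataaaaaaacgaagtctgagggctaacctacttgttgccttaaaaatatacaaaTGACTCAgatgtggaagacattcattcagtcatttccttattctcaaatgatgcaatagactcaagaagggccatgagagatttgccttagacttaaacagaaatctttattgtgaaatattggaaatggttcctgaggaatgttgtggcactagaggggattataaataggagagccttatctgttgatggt
Il11, chr7:4778142-4778391, minus strand: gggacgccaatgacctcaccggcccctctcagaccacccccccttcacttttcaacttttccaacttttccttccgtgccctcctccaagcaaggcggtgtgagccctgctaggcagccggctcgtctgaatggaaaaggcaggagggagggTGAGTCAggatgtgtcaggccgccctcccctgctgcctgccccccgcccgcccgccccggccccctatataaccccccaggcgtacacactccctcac
Il33, chr19:29924863-29925112, plus strand: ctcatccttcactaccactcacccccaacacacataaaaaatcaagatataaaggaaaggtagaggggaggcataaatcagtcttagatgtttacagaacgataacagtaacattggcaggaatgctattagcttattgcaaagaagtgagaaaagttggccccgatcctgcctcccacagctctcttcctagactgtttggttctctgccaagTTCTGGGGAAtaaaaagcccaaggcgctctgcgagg
Il33, chr19:29945540-29945789, plus strand: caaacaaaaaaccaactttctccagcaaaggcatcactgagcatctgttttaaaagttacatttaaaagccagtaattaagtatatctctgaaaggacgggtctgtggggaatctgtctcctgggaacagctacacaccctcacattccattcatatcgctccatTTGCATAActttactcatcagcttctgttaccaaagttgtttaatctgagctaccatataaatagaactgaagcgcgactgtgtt
Il6, chr5:30012864-30013113, plus strand: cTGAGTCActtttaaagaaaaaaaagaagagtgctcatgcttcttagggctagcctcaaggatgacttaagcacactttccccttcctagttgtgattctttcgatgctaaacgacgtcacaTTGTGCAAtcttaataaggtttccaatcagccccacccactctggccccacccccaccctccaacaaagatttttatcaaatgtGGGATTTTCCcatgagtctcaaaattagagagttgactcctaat
Il13ra2, Il11 and Il6 each hold an AP-1 match, beginning 193, 98 and 249 bases before the start. The other Il11 window holds none of the motifs. Nor do those of Il13ra1 and Il1f10, which were also over 1 higher in CAF, or that of Il17d, the ligand that fell most in CAF. Il6 also holds a C/EBP match (128 bases) and an NF-kB match (44 bases), Il33 a STAT6 match at the first start (36 bases) and a C/EBP match at the second (85 bases). Of 32851 promoter windows of the same length, 6.75% held an AP-1 match, 9.56% C/EBP, 7.02% STAT, 5.85% STAT6 and 3.90% NF-kB. The 51 members found in the table had 64 windows, of which 12 held AP-1, 10 C/EBP, 7 STAT, 13 STAT6 and 4 NF-kB; windows of 1 gene can overlap. The 2 Il33 windows hold neither an AP-1 nor an NF-kB match, and a match is a run of letters, not evidence of binding.

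Among the IL-1 family ligands, Il33 was highest in CAF and Il1a and Il1b were highest in TEC. IL-33 is stored in the nucleus of stromal and barrier cells and released on damage. Il33 was 10.32, 10.49 and 10.36 in COF and 13.26, 13.22 and 13.23 in CAF, a difference of 2.85 ± 0.47 (adjusted p = 0.00182). TEC arrays held 9.08 and 11.52 and CSC arrays 8.63 and 8.60, so the groups ordered as CAF, then COF and TEC, which overlapped, then CSC. CAF exceeded CSC by 4.62 ± 0.53 (adjusted p = 6.15e-05) and TEC by 2.94 ± 0.53, the latter by 1.72 without TEC replicate 1 and by 4.16 without TEC replicate 2. Il1f10, which encodes IL-38, a ligand with antagonist activity, rose from 6.64, 6.95 and 7.02 in COF to 8.07, 8.04 and 7.94 in CAF (1.14 ± 0.13, adjusted p = 0.000302). The CAF arrays lay above all arrays of the other 3 groups, with 6.32 and 6.74 in TEC and 6.22 and 6.19 in CSC.

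Il1b, a main fever and inflammation signal of myeloid cells, was 14.35 and 14.10 in TEC, next to 12.27 and 11.28 in CSC. On the fibroblast arrays it was 5.44 to 5.88, near the lower quartile. CAF minus TEC was -8.47 on the log2 scale and CAF minus CSC -6.02 (adjusted p of 4.47e-08 and 1.27e-07), and CSC minus TEC -2.45 ± 0.27 (adjusted p = 0.000102). CAF and COF did not differ by the test (0.24, 95% confidence interval -0.25 to 0.73). Il1a, its relative that acts when cells are damaged, was 9.34 and 8.61 in TEC, 7.72 and 7.35 in CSC and 3.497 to 3.93 in the fibroblasts. The IL-36 ligands, which act on skin and other barriers, were carried mostly by TEC. Il1f9 (IL-36 gamma) was 12.01 and 10.89 in TEC, 7.49 and 6.34 in CSC and at most 5.39 in the fibroblasts, and CSC minus TEC was -4.53 ± 0.39 (adjusted p = 3.34e-05). Il1f6 (IL-36 alpha) was 7.18 and 6.86 in TEC against 6.06 and 6.29 in CSC. Il1f8 (IL-36 beta) instead was higher in CAF than in CSC (1.33 ± 0.11) and TEC (0.93 ± 0.11), and under the lower quartile in both of the latter. Il1f5, now named Il36rn and an antagonist of these ligands, passed in none of the 4 comparisons and lay between 5.78 and 6.34. Il18, which drives interferon gamma from lymphocytes, was 10.41 and 9.46 in TEC, 8.14 to 8.62 in the fibroblasts and 7.51 and 7.11 in CSC (CSC minus TEC -2.62 ± 0.27). It was higher in CAF than in CSC (0.84, adjusted p = 0.0141), but not without CSC replicate 2 (adjusted p = 0.112).

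**Figure D4:**
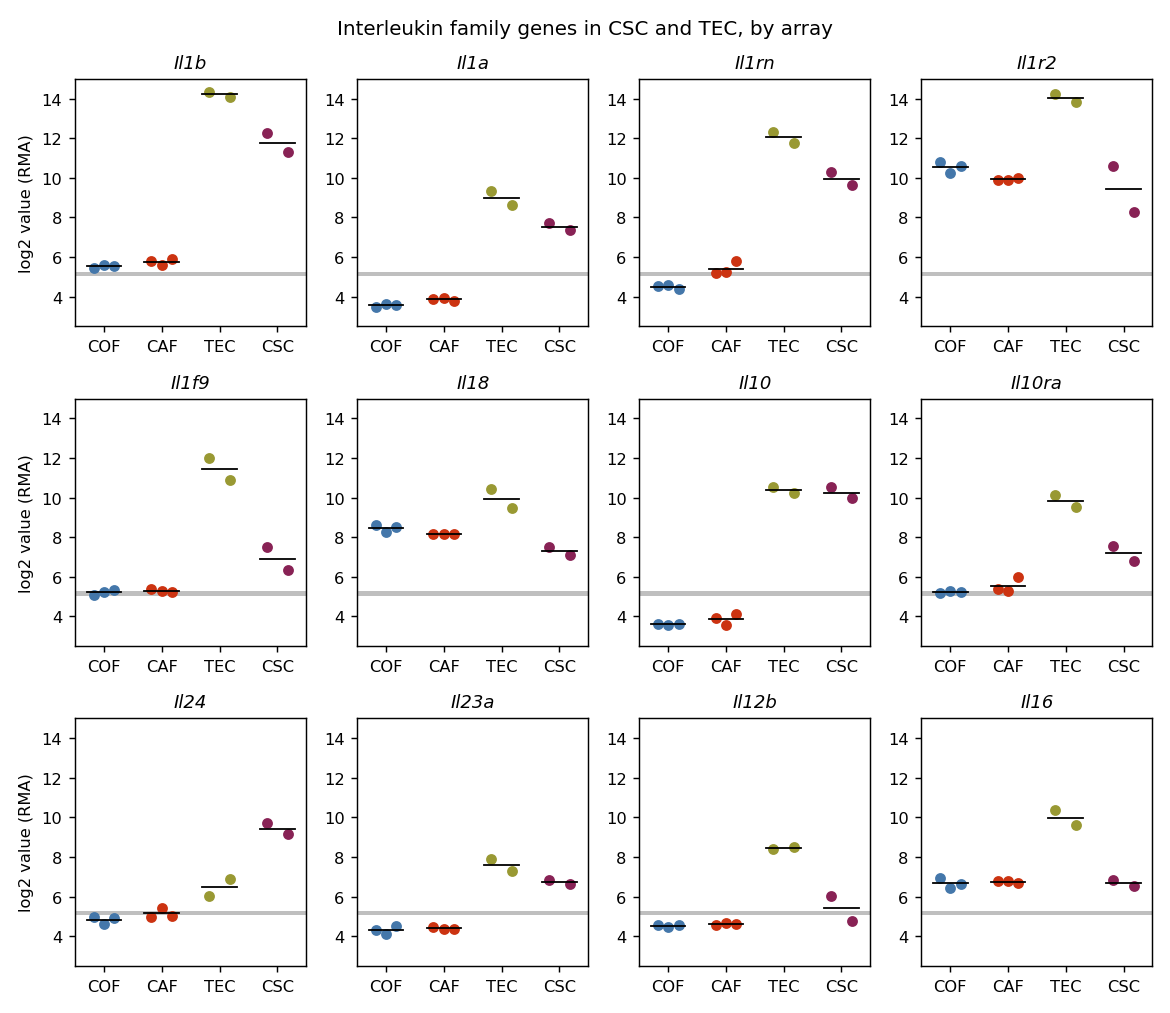
Each panel shows the log2 value of 1 gene on the 3 COF, 3 CAF, 2 TEC and 2 CSC arrays (points) with the group mean (black line), and the grey band spans the lower quartiles of the arrays (5.05 to 5.26). Il1b, Il1a and Il1rn are highest in TEC, next in CSC and lowest in the fibroblasts; Il10 overlaps between TEC and CSC, and Il24 is highest on both CSC arrays.

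The antagonists of the IL-1 family differed in where they were high. Il1rn, the secreted antagonist of the IL-1 receptor, was 12.32 and 11.75 in TEC, next to 10.30 and 9.62 in CSC. The fibroblasts lay far lower, at 4.53, 4.59 and 4.36 in COF, under the lower quartile, and at 5.21, 5.24 and 5.78 in CAF. The increase in CAF (0.91 ± 0.23, adjusted p = 0.0125) had an adjusted p of 0.0514 without COF replicate 3 and of 0.0646 with the mean of its 3 probe sets. Il1r2, a decoy receptor of IL-1 that neutrophils are known to carry, was 14.21 and 13.82 in TEC. The CSC arrays differed, at 10.61 and 8.27. COF arrays held 10.23 to 10.81 and CAF arrays 9.88 to 9.995, a difference of -0.61 that did not pass (adjusted p = 0.380). Fitted with the COF and CAF arrays alone, it passed (adjusted p = 0.0099). CSC minus TEC was -4.57 ± 0.58 (adjusted p = 0.000237). Against CSC, CAF was higher by 1.65 without CSC replicate 1, and the difference was -0.68 without CSC replicate 2, so no direction can be given there. Il18bp, which neutralises IL-18, was 6.49 to 6.71 in COF, 6.99 to 7.04 in CAF, 7.87 and 7.52 in TEC, with 7.14 and 6.94 in CSC. Its increase in CAF (0.40 ± 0.11, adjusted p = 0.0206) had an adjusted p of 0.0528 to 0.0873 without COF replicate 3 or any CAF array.

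The receptors of the family were split between populations. Il1r1, the signalling receptor of IL-1, was 11.71 to 12.08 in COF and 11.83 to 11.90 in CAF, and these groups overlapped. TEC arrays held 8.57 and 10.38 and CSC arrays 7.88 and 8.18, and CAF exceeded CSC by 3.83 ± 0.41 (adjusted p = 4.1e-05). Il1rap, the shared second chain, rose from 7.83, 7.55 and 7.80 in COF to 8.78, 8.77 and 8.47 in CAF (0.94 ± 0.18, adjusted p = 0.00328) and was highest in TEC (11.37 and 10.68). Il1rl2, the receptor of IL-36, was 6.27 to 6.51 in the fibroblasts and at most 4.99 in TEC and CSC, under the lower quartile, and CAF exceeded CSC by 1.47 ± 0.13 and TEC by 1.54 ± 0.13. Il18rap, the second chain of the IL-18 receptor, was 9.98 and 8.80 in TEC and 5.14 to 5.83 on all other arrays (CSC minus TEC -3.96 ± 0.34, adjusted p = 3.24e-05). Il18r1, its first chain, was 5.60, 5.58 and 6.29 in CAF and 4.88 to 5.42 in COF (0.70 ± 0.27, adjusted p = 0.0777), and passed without either TEC array (adjusted p = 0.0265). Il1rapl2, a relative mostly known from neurons, was under the lower quartile on all arrays.

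Il6 was higher in CAF than in CSC and TEC. IL-6 drives acute-phase and Stat3 signalling. Il6 was 14.03, 13.94 and 14.01 in COF and 14.19, 14.18 and 14.21 in CAF. The CAF arrays lay above the COF arrays, but the difference did not pass (0.20, 95% confidence interval -0.62 to 1.02, adjusted p = 0.742). Fitted without the TEC and CSC arrays, it passed (adjusted p = 0.0374). These values lay 0.54 to 0.75 under the highest value of their array. In CSC Il6 was 10.75 and 10.89, and CAF exceeded CSC by 3.37 ± 0.41, a 10.4-fold difference (adjusted p = 8.25e-05). In TEC it was 11.51 and 13.36, so that CAF exceeded TEC by 2.68 without TEC replicate 2 and by 0.84 without TEC replicate 1.

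Of the receptor chains of IL-6, Il6ra was lower in CAF than in COF and Il6st did not pass. Il6ra, which binds IL-6, fell from 9.52, 8.97 and 9.46 in COF to 8.30, 8.22 and 8.42 in CAF (-1.002 ± 0.19, adjusted p = 0.00366). Its other probe set gave -0.36 between CAF and COF. On the probe set used, TEC arrays gave 9.65 and 9.14 and CSC arrays 8.56 and 8.10, overlapping CAF. Against CSC its probe sets disagreed: the probe set used gave -0.02, and the mean of both gave 0.53 (adjusted p = 0.0321). Against TEC the value was -1.08, and with the mean of both probe sets -0.25 (adjusted p = 0.259). Il6st, the shared signal chain gp130, was 11.09 to 11.44 in COF, 11.72 to 11.83 in CAF, 8.22 and 9.54 in TEC and 8.17 and 7.94 in CSC. CAF exceeded CSC by 3.73 ± 0.31 (13.3-fold, adjusted p = 8.47e-06). Against COF it was 0.51 higher, which did not pass with all 10 arrays (adjusted p = 0.200) but did without either TEC array (0.00601).

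Il11, a fibrogenic relative of IL-6, was 6.55, 8.14 and 7.23 in COF and 8.69, 8.55 and 8.96 in CAF. COF replicate 2 lay closest to CAF, and the difference of 1.42 ± 0.46 (adjusted p = 0.0385) did not pass without any 1 of COF replicates 1 and 3, the CAF arrays or the CSC arrays (adjusted p of 0.0532 to 0.136). CAF exceeded CSC (6.11 and 5.87) by 2.75 ± 0.51. Il31ra, a receptor chain of the itch cytokine IL-31, fell from 7.24, 7.33 and 7.18 in COF to 6.25, 6.34 and 6.13 in CAF (-1.01 ± 0.09, adjusted p = 0.000105). Il27ra, the receptor of IL-27, was 7.22 to 7.77 in COF, 7.90 to 8.05 in CAF, 6.76 and 6.77 in TEC, with 5.995 and 6.02 in CSC. It was higher in CAF than in COF by 0.54 (adjusted p = 0.0122, and 0.0503 without COF replicate 3) and higher than in CSC by 1.98 ± 0.15. Of the 6 family members, 5 were higher in CAF than in CSC, against 33.4% of all genes. The median difference of the 6 was 2.36, against 0.015 over all genes. In the same comparison 16 of 16 pan-fibroblast genes were higher in CAF, and the part of the cell type was not tested.

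CAF replicate 3 stood apart from the other CAF arrays in several genes known from lymphocytes. Il7r, the IL-7 receptor of lymphocytes, was 5.40 and 5.28 on CAF replicates 1 and 2 and 6.55 on replicate 3. Il17a, a cytokine of T and innate lymphoid cells, was 5.15, 5.31 and 6.42, and Il2rb, a chain of the IL-2 and IL-15 receptors, 5.81, 5.98 and 6.77. Il18r1, Il10ra and Il1rn were likewise at least 0.5 higher on replicate 3 than on both other CAF arrays. In all these were 6 of 66 members, against 1.43% of all genes. On the same arrays the median of the 12 leukocyte genes was 6.45, 6.33 and 7.64. The median of the 13 T, NK and innate lymphoid cell genes was 6.003, 6.46 and 6.62, with Cd247 and Ncr1 under the lower quartile on all 3. That of the 6 B cell genes was 5.58, 5.59 and 5.45. The part of other cells in these 6 genes was not tested. Il7r and Il2rb did not pass between CAF and COF, and Il17a did not either (0.53, adjusted p = 0.189). Il17a was higher in CAF than in TEC by 1.02 (adjusted p = 0.0164) and by 0.62 without CAF replicate 3, with an adjusted p of 0.0666 without TEC replicate 2.

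Il7, the ligand that stromal cells supply to lymphocytes, was 4.38 to 4.61 in COF and 4.90 to 5.22 in CAF (0.64 ± 0.13, adjusted p = 0.00568), all under the lower quartile. Il7r was 9.97 and 9.54 in TEC, next to 8.78 and 8.44 in CSC. CAF minus CSC was -2.86 and CAF minus TEC -4.01 (adjusted p of 8.15e-05 and 1.2e-05). The difference of CSC from TEC (-1.15, adjusted p = 0.0326) did not pass without TEC replicate 1 or either CSC array (0.0574 to 0.156). Il15, which supports NK cells, was 9.003 and 8.46 in TEC, 5.97 and 7.08 in CSC and 4.87 to 5.32 in the fibroblasts. Its private receptor chain Il15ra spanned 10.002 to 10.07 in CAF and 9.59 to 9.83 in COF, 8.63 and 8.98 in TEC, and 8.59 and 9.97 on the CSC arrays, which thus spanned most of the range. Il21r, a receptor of B and T cells, was 8.07 and 7.71 in TEC, 7.18 and 6.51 in CSC and 5.69 to 6.16 in the fibroblasts. Il2ra was 4.70 to 5.44 on all arrays.

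Il10 was high in TEC and CSC and low in the fibroblasts. IL-10 limits inflammation and is made by macrophages and lymphocytes. Il10 was 10.52 and 10.25 in TEC, next to 10.52 and 9.98 in CSC, which overlapped (CSC minus TEC -0.14, 95% confidence interval -0.61 to 0.33). The fibroblasts were at 3.56 to 4.10, under the lower quartile, and CAF minus CSC was -6.40 (adjusted p = 3.42e-08). Its receptor chain Il10ra did differ, with 10.13 and 9.50 in TEC against 7.55 and 6.80 in CSC (-2.64 ± 0.30, adjusted p = 0.000137). Beside these values, 12 of 12 leukocyte genes and 9 of 10 granulocyte genes were lower in CSC than in TEC, with granulocyte medians of 12.99 and 12.40 in TEC and 8.95 and 7.71 in CSC. The macrophage genes divided into 5 higher, 7 lower and 5 not passed, with medians of 10.83 and 10.74 in TEC and 11.06 and 10.90 in CSC. Their part in the difference of CSC from TEC was not tested. Il10rb, the second chain of several receptors of this family, was 8.31 to 8.49 in COF and 9.22 to 9.29 in CAF (0.87 ± 0.15, adjusted p = 0.00195).

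Il24 was the member most raised in CSC over TEC. IL-24 belongs to the IL-10 family and acts on epithelia. It was 9.72 and 9.14 in CSC, 6.05 and 6.88 in TEC and 4.63 to 5.44 in the fibroblasts, a difference from TEC of 2.96 ± 0.29 (7.80-fold, adjusted p = 6.2e-05). CSC and TEC did not overlap, and 16 of 17 pan-epithelial genes were also higher in CSC than in TEC. Of 17 macrophage genes 5 were higher in CSC and 7 lower, and of all genes 26.6% were higher. The part of these cells in the Il24 level was not tested. The other members higher in CSC were Il17d (0.43) and Il17re (0.40, and 1.26 with the mean of its probe sets, adjusted p = 9.42e-05). With the probe sets used, both lost the call without TEC replicate 1 or CSC replicate 2 (adjusted p of 0.0725 to 0.100). Il20, of the same family, lay between 6.27 and 6.88 and passed in none of the comparisons.

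Among the IL-12 family, Il12b, the shared p40 subunit, was 8.39 and 8.48 in TEC, 6.03 and 4.79 in CSC and 4.49 to 4.66 in the fibroblasts (CSC minus TEC -3.03 ± 0.31, adjusted p = 7.15e-05). Il12a, the p35 subunit of IL-12, was 7.31 and 6.38 in TEC and under 5 elsewhere. Il23a, the p19 subunit that makes IL-23 with p40, was 7.88 and 7.29 in TEC, next to 6.85 and 6.64 in CSC, and CAF minus CSC was -2.35 (adjusted p = 4.99e-06). The difference of CSC from TEC was -0.85 and became -0.55 without TEC replicate 1. The receptor chains Il12rb1 and Il12rb2 lay at 5.20 or lower on every array.

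The IL-17 family held the largest decrease of the members in CAF. Il17d, a ligand made by non-immune tissues, was 8.23, 8.06 and 8.23 in COF and 5.23, 5.39 and 5.32 in CAF (-2.86 ± 0.10, 7.26-fold, adjusted p = 2.4e-06). TEC arrays gave 3.12 and 3.39 and CSC arrays 3.62 and 3.74, under the lower quartile. The name of this probe set ends in _x_at, which marks probes shared with other transcripts. The other Il17d probe set, with a mean of 3.96 over all arrays, gave -0.37 (adjusted p = 0.0655), and -0.12 between CSC and TEC, where the first gave 0.43. Il17ra, the receptor chain that IL-17A and most relatives share, fell from 10.85, 10.25 and 10.67 in COF to 9.48, 9.48 and 9.56 in CAF (-1.08 ± 0.19, adjusted p = 0.00255), and both of its probe sets gave a decrease (-1.08 and -1.05). TEC arrays gave 11.33 and 10.65 and CSC arrays 8.56 and 8.38 (CSC minus TEC -2.52 ± 0.24). Il17rd, also known as a brake on FGF signalling, was 6.60 to 6.66 in COF and 5.78 to 5.92 in CAF (-0.77 ± 0.13, adjusted p = 0.00192). Il17rc, the partner chain of Il17ra, was 8.63 to 8.93 on the fibroblast arrays and 6.89 to 7.70 in TEC and CSC, with CAF 1.10 ± 0.19 above CSC. For Il17re, a receptor chain of epithelia, the probe sets disagreed. The brighter one gave -0.09 between CAF and CSC and the mean of both -1.34 (adjusted p = 1.49e-05), and against TEC the sign turned from 0.31 to -0.08. Il17rb lay between 4.501 and 5.28, and was lower in CAF than in CSC (-0.61) and TEC (-0.46). Il17b, between 5.68 and 6.40, passed only against TEC (0.33, adjusted p = 0.0452).

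Of the genes outside these families, Il34, the ligand that shares the receptor Csf1r with CSF-1, was carried by the fibroblasts. It was 7.59, 7.74 and 7.51 in COF, 7.30, 7.14 and 6.95 in CAF, 4.66 and 5.42 in TEC and 4.73 and 4.78 in CSC. CAF exceeded CSC by 2.38 ± 0.20 (adjusted p = 9.86e-06), while the difference from COF (-0.49, adjusted p = 0.067) passed only without either TEC array (0.00706) or in other settings of the fit. Il16, a chemoattractant of leukocytes, was 10.35 and 9.62 in TEC and 6.45 to 6.93 on all other arrays (CSC minus TEC -3.30 ± 0.24, adjusted p = 1.52e-05). Il3ra, the private chain of the IL-3 receptor, was 7.65 to 7.72 in CAF, 7.37 to 7.57 in COF, 6.53 and 7.29 in TEC and 5.98 and 5.84 in CSC.

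The 13 members under the lower quartile on all 10 arrays were Il2, Il3, Il4, Il5, Il5ra, Il7, Il9r, Il12rb2, Il13, Il21, Il25, Il1rapl2 and Il4i1. Of these, 9 passed in at least 1 comparison, with differences of at most 1.17. Of all genes, 88.6% passed in at least 1 comparison. Of all member values, 34.7% lay under the lower quartile of their array, against 20.7% of the values of all genes. Il9, at 5.10 to 5.71, passed as higher in CAF than in CSC (0.37) and TEC (0.44).

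The TEC arrays differed from each other in several genes that were higher in CAF than in CSC. Il13ra2 was 2.52 higher on TEC replicate 2 than on replicate 1, Il33 2.44, Il6 1.84, Il1r1 1.81, Il11 1.66 and Il6st 1.32, and the pan-fibroblast median rose from 8.54 to 11.20 between these arrays. The median of TEC replicate 2 minus replicate 1 was 0.21 over the 28 members higher in CAF than in CSC. It was -0.35 over the 15 members lower in CAF, and -0.060 over all genes. Genes outside the family that were higher in CAF than in CSC were not set beside these. The part of fibroblasts in the differences between the TEC arrays was not tested. Between CSC and TEC, Il33 (-1.68), Il6 (-1.61) and Il1r1 (-1.45) passed as lower in CSC. Against TEC replicate 2 alone they were -2.90, -2.54 and -2.35, and against replicate 1 alone -0.46, -0.69 and -0.54. The call of Il33 was lost without any 1 of the COF, CAF or CSC arrays (adjusted p of 0.0559 to 0.129), and those of Il6 and Il1r1 without either CSC array (0.0552 to 0.108). All 3 calls were also lost in a fit on the 4 arrays of both groups (adjusted p of 0.134 to 0.206).

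**Figure D5:**
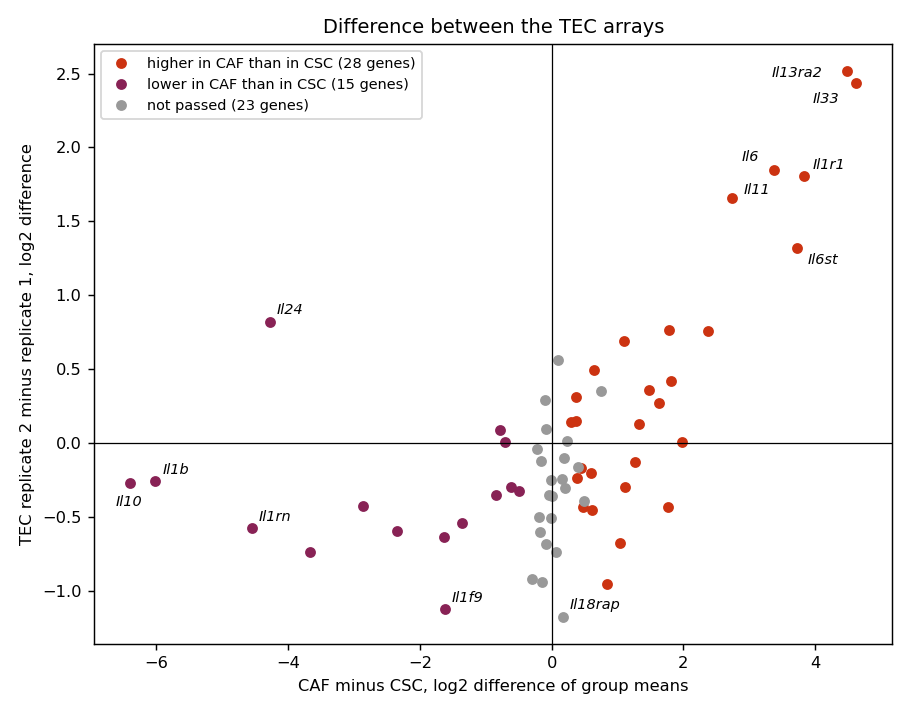
Each point is 1 of the 66 genes, with the CAF minus CSC log2 difference of group means on the x axis and TEC replicate 2 minus replicate 1 on the y axis; colour gives the call between CAF and CSC. Il13ra2, Il33, Il6, Il1r1, Il11 and Il6st lie at the upper right, 1.32 to 2.52 higher on replicate 2, and Il1f9 and Il18rap lie lowest.

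Genes that pass the signal on were read beside the receptors. Of 31 measured adaptor, inflammasome and Jak-Stat genes, 5 were higher and 13 lower in CAF than in COF. Of all genes, 18.1% were higher and 16.7% lower. The median difference of the 31 was -0.21, against 0.018 over all genes. Myd88, the adaptor of IL-1 family receptors, was 10.99, 10.40 and 10.86 in COF and 9.57, 9.61 and 9.65 in CAF (-1.14 ± 0.16). Jak1 (-0.77 ± 0.13), the kinase used by gp130 and Il4ra, and Stat3 (-0.76 ± 0.11), the main factor downstream of IL-6, were lower as well. So were Cish (-1.11 ± 0.17) and Socs2 (-0.75 ± 0.12), feedback inhibitors of Jak-Stat signalling, whereas Socs3 was at 12.64 to 12.88 in COF and 12.55 to 12.72 in CAF. Pycard, an inflammasome adaptor, was 7.52 to 7.73 in COF and 8.85 to 9.04 in CAF (1.35 ± 0.10). Stat6, which acts downstream of Il4ra and Il13ra1, was 0.52 ± 0.14 higher. Between CSC and TEC, 20 of the 31 were lower in CSC and 3 higher, against 20.1% of all genes lower and 26.6% higher. In the same comparison 12 of 12 leukocyte and 9 of 10 granulocyte genes were lower in CSC, and their part was not tested. Nlrp3, the sensor of the inflammasome that releases IL-1 beta, was 11.70 and 11.05 in TEC, 8.87 and 8.85 in CSC and 6.20 to 6.57 in the fibroblasts. Sigirr, which dampens IL-1 receptor signalling, was higher in CSC than in TEC, with 8.04 and 8.06 in CSC, 7.15 and 6.98 in TEC and 5.89 to 6.18 in the fibroblasts (CSC minus TEC 0.99 ± 0.11).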

How the data were processed

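The 10 RNA samples were measured on Affymetrix mouse arrays, 1 sample an array. The authors deposited log2 values of 22690 probe sets summarised by RMA (named in the submitters' processing notes); the version, and whether all arrays were normalized together, are not given in the sources used here. RMA equalises array distributions and compresses differences near the background and the top of the scale. The values were used as deposited. Of the probe sets, 20393 have 1 symbol in the platform annotation, 691 several and 1606 none, and those with several or none were left out. A gene is represented by its brightest probe set, by the mean of all arrays (12394 genes, 66 members with 93 probe sets; all 66 matched RefSeq by gene identifier). Groups and replicate numbers come from the sample titles.

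The linear model of limma (version 3.58.1, run under R 4.3.3; lmFit, then eBayes) had a term for group alone, and its spread was estimated from all 10 arrays together. Tests were two-sided, with Benjamini-Hochberg adjustment over all genes of a comparison and a threshold of 0.05. Errors are moderated standard errors and intervals 95% confidence intervals. Precision is limited by how few arrays there are. The fit was tested on simulated data.

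The members, marker and signalling lists, tests and alternatives were chosen with earlier results of these data known. Named with values are, in each comparison, up to 8 members with the largest increase and 8 with the largest decrease. These were taken among those that passed without overlap. Also named are a fixed set of members and, in each comparison, up to 6 signalling genes with the smallest adjusted p. Other members, Socs3 and Stat6 were added after their values were seen. Alternatives were other sample sets, a replicate block, other variance priors, probe set choices, scalings, weights, averaged close pairs, stricter thresholds and leaving out each array.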

Additional observations from a re-analysis of the deposited data

How the results depend on the processing

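Of 43 named members, 17, 28, 29 and 41 were called for CAF minus COF, CSC minus TEC, CAF minus CSC and CAF minus TEC, and 6, 18, 25 and 32 of these kept the call in every setting, stricter thresholds included. For CAF minus COF these were Il13ra1, Il13ra2, Il17ra, Il1f10, Il31ra and Il33. Of the values of named members under the other settings, counted by member and setting, 913, 917, 946 and 946 kept direction and side of the threshold in these comparisons, 34, 46, 22 and 30 lost the call, 30, 13, 7 and 0 gained a call, and 0, 1, 2 and 1 changed sign with a call on either side. The sign changes were Il17d between CSC and TEC without probe sets ending in _x_at or _s_at (-0.12), Il6ra between CAF and CSC (0.53) and Il17re between CAF and TEC (-0.085) with the mean of all probe sets, and Il1r2 between CAF and CSC without CSC replicate 2 (-0.68; 1.65 without CSC replicate 1). The cause was not tested.

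For CAF minus COF the 13 higher members became 21 with only these 2 groups, 23 with array weights (whose estimate did not converge), 6 with close pairs averaged, 7 at an adjusted p under 0.01 and 5 with a difference of at least 1, and the 6 lower ones 14 with array weights. For CSC minus TEC the 3 higher members became 1 with only these 2 groups, with array weights, at an adjusted p under 0.01 and with a difference of at least 1, and the 32 lower ones 20 with only these 2 groups. Without the dimmest 30% of genes, which leaves 38 members, and with a difference of at least 1, the 28 members higher in CAF than in CSC became 15 and 18, and the 27 higher than in TEC 16 and 15. Leaving out each array in turn gave 7 to 17 higher and 6 to 7 lower for CAF minus COF, 1 to 5 and 25 to 34 for CSC minus TEC, 24 to 28 and 14 to 16 for CAF minus CSC, and 22 to 26 and 28 to 30 for CAF minus TEC. The 3 members higher in CSC than in TEC became 1 without TEC replicate 1 or CSC replicate 2 and 5 without TEC replicate 2.

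Whether the replicate numbers pair the samples could not be decided from the values. Same-numbered arrays of COF and CAF, from mice of different genotype, had correlations of their deviations from the group means of 0.13, 0.0063 and -0.082. Between CAF and TEC they were -0.024 and 0.090, and between CAF and CSC -0.041 and 0.091. Both pairs of TEC and CSC gave -0.057. In groups of 2 arrays the deviations mirror each other, which limits what these correlations can show. With the replicate number as a block, 11 members were higher and 6 lower in CAF than in COF, and 3 and 31 between CSC and TEC. Members at or under the lower quartile are limited by background, and groups of 2 arrays by their number.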

Other observations

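Of 11 measured cytokines and chains that belong to the same receptor families under other names, 3 were higher and 1 lower in CAF than in COF, against 34.8% of all genes called. Lif, a gp130 ligand, was 8.71, 8.51 and 8.67 in COF and 10.23, 10.33 and 10.61 in CAF (1.76 ± 0.36), Clcf1, of the same group, was 0.91 ± 0.12 higher, and the receptor chain Lifr 0.51 ± 0.16 higher. Tslp, an alarm signal of barrier and stromal cells like Il33, went the other way, from 8.59, 7.89 and 8.55 in COF to 6.36, 6.63 and 7.13 in CAF (-1.64 ± 0.33), and it was 4.04 to 5.34 in TEC and CSC. Il25, a further such signal, was under the lower quartile on every array. Osmr, the oncostatin M receptor, was 11.44 to 11.86 in the fibroblasts, 10.03 and 10.45 in CSC and 7.78 and 9.51 in TEC (CSC minus TEC 1.59 ± 0.44). Ebi3, a subunit of IL-27 and IL-35, was 10.66 and 9.88 in TEC, 7.26 and 6.85 in CSC and at most 4.74 in the fibroblasts.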
